A study of Homo sapiens with 12 samples.

Results

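Described here are 10 genes linked to the FOXO transcription factors and to growth-factor withdrawal: INSR, IRS1, IRS2, PIK3IP1, KLHL24, CCNG2, BCL6, TXNIP, ARRDC4 and DDIT4L. All 10 were found by Ensembl identifier among the 58051 genes of the count tables. They were chosen by their known function and with their serum response in these libraries already in view. Their serum responses are therefore given as a description, without a test. Differences of these genes between siRNAs are tested, as is the serum response of other genes of the pathway. The lists of those other genes were also drawn up with earlier results of these data known, so their p-values are descriptive. RNA was sequenced from HCT116, an established human colon carcinoma cell line, transfected by Oligofectamine with a control siRNA (siControl) or an siRNA against PFDN2 (siPFDN2) or PFDN5 (siPFDN5), which encode subunits of the chaperone prefoldin. Serum was removed 24 h after the siRNA, for 48 h, in all 6 groups. Each siRNA was sampled at the end of this starvation (before serum) and 90 min after serum was given back (after serum), with 2 libraries in each of the 6 groups. The labels do not say that the 2 libraries of a group came from separate cultures, so p-values measure only the spread between these libraries.

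FOXO proteins are transcription factors that insulin and other growth factors inactivate: receptor signalling through PI3K leads AKT to phosphorylate FOXO, which then leaves the nucleus. In starved cells FOXO is free to act, and its known targets include the insulin receptor and the adaptor IRS2, which prepare the cell for returning hormone, and brakes on growth such as CCNG2 and KLHL24. TXNIP and ARRDC4 belong to the arrestin-domain family and are best known as targets of MondoA, a sensor of glucose phosphates that binds E-box elements.

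The promoter windows below are shown because each holds a match to 1 of 3 short elements tied to these factors. RefSeq (GRCh38.p14) gave 13 windows for the 10 genes, each the 250 bases before an annotated start, and both strands were searched. The FOXO core GTAAACA was in 2.98% of all 35116 windows, the insulin-response core CAAAACA in 4.3% and the E-box CACGTG in 6.34%. Capitals mark the match and no matches overlapped. The windows lie at chr13:109786584-109786833 (minus strand) for IRS2, chr3:183635373-183635622 (plus strand) for KLHL24, chr1:145996580-145996829 (minus strand) for TXNIP, chr15:97960453-97960702 (plus strand) for ARRDC4 and chr4:77156957-77157206 (plus strand) for CCNG2. Each is printed 5′ to 3′ on the strand of its gene.
IRS2: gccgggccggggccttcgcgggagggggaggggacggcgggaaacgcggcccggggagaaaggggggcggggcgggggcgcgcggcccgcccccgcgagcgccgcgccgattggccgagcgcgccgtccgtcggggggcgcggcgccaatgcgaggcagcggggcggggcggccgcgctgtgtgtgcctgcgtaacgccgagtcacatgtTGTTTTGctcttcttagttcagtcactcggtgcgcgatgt
KLHL24: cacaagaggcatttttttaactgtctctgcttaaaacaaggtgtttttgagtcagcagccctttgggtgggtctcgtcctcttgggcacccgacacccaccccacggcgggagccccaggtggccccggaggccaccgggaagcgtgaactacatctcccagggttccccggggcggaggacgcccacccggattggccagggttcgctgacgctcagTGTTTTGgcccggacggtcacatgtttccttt
TXNIP: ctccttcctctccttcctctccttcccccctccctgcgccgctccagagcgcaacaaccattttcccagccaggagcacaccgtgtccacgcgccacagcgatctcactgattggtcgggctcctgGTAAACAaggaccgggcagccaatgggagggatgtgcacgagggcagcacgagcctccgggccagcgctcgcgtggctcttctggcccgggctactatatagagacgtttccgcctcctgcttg
ARRDC4: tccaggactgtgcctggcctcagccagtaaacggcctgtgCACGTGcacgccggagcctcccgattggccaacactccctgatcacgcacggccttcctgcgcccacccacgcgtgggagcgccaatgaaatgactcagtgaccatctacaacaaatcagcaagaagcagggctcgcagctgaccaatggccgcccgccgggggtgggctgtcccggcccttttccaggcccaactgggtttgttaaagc
CCNG2: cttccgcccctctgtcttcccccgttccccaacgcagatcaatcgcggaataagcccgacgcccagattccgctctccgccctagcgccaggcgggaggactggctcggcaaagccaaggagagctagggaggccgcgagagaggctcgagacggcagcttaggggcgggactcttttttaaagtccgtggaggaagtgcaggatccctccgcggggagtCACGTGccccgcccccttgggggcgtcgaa
IRS2 and KLHL24 carry TGTTTTG, the complement of the insulin-response core, with the match starting 40 and 32 bases before the RefSeq start. In TXNIP the FOXO core starts 124 bases before it. The E-box starts 210 bases before the RefSeq start in ARRDC4 and 30 bases before it in CCNG2. In KLHL24 and CCNG2 the match lies after the gene start of the positions given below, which come from another annotation. The windows of INSR, IRS1, PIK3IP1, BCL6 and DDIT4L hold none of the 3 elements on either strand. A match is a description of the letters and not a measured binding site.

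The libraries held 59784425 to 136504590 fragments counted over gene bodies. The second siPFDN2 library before serum stood apart: its deviations from the mean library followed gene GC content with a Spearman's rho of 0.815, against -0.463 to 0.124 in the others, and the replicates of its group differed with an SD of 0.681 on the log2 scale, against 0.116 to 0.301 in the other groups. Most values of the chosen genes that it moved are also given without it. Starved siPFDN2 then has 1 library and no spread of its own, and its tests borrow the spread of the other groups. PFDN2 stood at 70.9% of siControl in siPFDN2 before serum and 50.8% after it, and PFDN5 at 58.5% in siPFDN5 before serum. After serum PFDN5 was at 95.9% of siControl in the libraries labelled siPFDN5, so its own target does not bear that label out. Of 8 colon epithelial markers 7 reached 1 CPM (count relative to the scaled library total; LGALS4 did not), none of 4 leukocyte markers did, and 1 of 5 fibroblast and 1 of 3 endothelial markers did.

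In starved siControl cells the genes spanned a wide range of abundance, compared per kilobase of exon. IRS1 was highest, at 10.6 exon CPM per kilobase, above 86.6% of the 27915 genes tested. DDIT4L followed at 6.1, INSR at 4.25, KLHL24 at 3.79, CCNG2 at 3.05, BCL6 at 2.34 and ARRDC4 at 1.73 exon CPM per kilobase. PIK3IP1 and IRS2 were lowest of those detected, at 0.723 and 0.542, below the median gene. INSR and KLHL24 were the only neighbours in this order whose replicates overlapped. TXNIP (chr1:145992435-145996600, minus strand) was at or near 0: the 12 libraries held 0, 1 or 2 counts each, under the 3 counts taken as the limit of detection (0.0223 to 0.0497 CPM), and the transcript estimates did not exceed 2 either. Whether TXNIP RNA was absent from the cells or was lost in the authors' alignment cannot be told from these tables. TXNIP was not tested, and 9 genes remain.

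Gene positions are those of the count tables (GRCh38). The receptor INSR (chr19:7112255-7294034, minus strand), a tyrosine kinase that binds insulin, was nearly level after serum. In siControl its gene-body CPM was 41.2 and 53.9 before serum and 48.0 and 51.0 after it. In siPFDN2 the values were 49.1 and 61.7 before and 42.3 and 47.3 after, and in siPFDN5 57.2 and 55.9 before and 43.2 and 45.9 after. The groups before and after serum overlapped in siControl, and both libraries after serum were the lower ones with either prefoldin siRNA. The serum log2 fold change was 0.06 (SE 0.17) in siControl, -0.31 (SE 0.17) in siPFDN2 and -0.35 (SE 0.17) in siPFDN5. The siPFDN2 value was -0.13 without the library that stood apart.

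IRS1 (chr2:226731317-226799759, minus strand), the adaptor that the activated receptor phosphorylates and that recruits PI3K, was also little moved. Its CPM in siControl was 129 and 133 before serum and 142 and 137 after it. In siPFDN2 it was 203 and 257 before and 196 and 189.8 after, and in siPFDN5 154 and 154 before and 139.7 and 148 after. The siPFDN2 libraries were the highest at both times, and the starved library that stood apart was the highest of all. The serum log2 fold changes were 0.09, -0.25 and -0.10 in the order siControl, siPFDN2 and siPFDN5, each with an SE of 0.14, and that of siPFDN2 was -0.08 without the library that stood apart.

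IRS2 (chr13:109752698-109786568, minus strand), the second adaptor, went against the name of an insulin-repressed gene, since it was higher after serum with every siRNA. In siControl its CPM was 4.9 and 5.14 before serum and 22.3 and 16 after it. In siPFDN2 it was 4.38 and 7.27 before and 14 and 13.6 after, and in siPFDN5 8.60 and 8.63 before and 10.4 and 12.5 after. No library before serum reached any library after serum of the same siRNA, and the gap was narrowest in siPFDN5, which began higher. The log2 fold change was 1.93 (SE 0.24) in siControl, 3.81-fold, and 1.24 (SE 0.24) in siPFDN2. In siPFDN5 it was 0.41 (SE 0.24), which is 1.52 lower than in siControl on the log2 scale. Without the library that stood apart the siPFDN2 value was 1.65. IRS2 overlaps the gene AL162497.1, and fragments were counted without strand, so reads of the pair cannot be told apart.

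PIK3IP1 (chr22:31281593-31292534, minus strand) encodes a membrane protein that binds the catalytic subunit of PI3K and restrains it. It was lower after serum with each siRNA. Its CPM was 3.69 and 3.30 before and 2.71 and 2.3 after in siControl, 2.15 and 2.60 before and 1.61 and 1.87 after in siPFDN2, and 3.23 and 3.36 before and 1.83 and 2.27 after in siPFDN5. The groups did not overlap within any siRNA, and the log2 fold changes were -0.49 (SE 0.19), -0.45 (SE 0.20) and -0.69 (SE 0.20), with -0.30 in siPFDN2 without the library that stood apart. PIK3IP1 overlaps its antisense gene PIK3IP1-AS1, whose reads cannot be separated here. In bulk RNA a lower level in every cell and a loss from some cells cannot be told apart, for this gene and the others.

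KLHL24 (chr3:183635568-183684477, plus strand), an adaptor of a cullin-based ubiquitin ligase, and CCNG2 (chr4:77157151-77433388, plus strand), an atypical cyclin tied to cell cycle arrest, had similar profiles. KLHL24 was at 31.6 and 36.2 CPM before and 27.9 and 23.8 after serum in siControl, and at 42.8 and 38.8 before and 24.8 and 22.7 after in siPFDN5. In siPFDN2 its 2 starved libraries were far apart, at 31.4 and 15.2 CPM, with 22.4 and 23.2 after serum between them. Serum log2 fold changes of KLHL24 were -0.39 (SE 0.26) in siControl, -0.03 (SE 0.26) in siPFDN2 and -0.78 (SE 0.27) in siPFDN5. The siPFDN2 value became -0.46 without the library that stood apart, so its sign held and its size did not.

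CCNG2 was at 25.6 and 26.9 CPM before serum and 19.5 and 17.6 after it in siControl. In siPFDN2 it was at 21 and 13.7 before and 13.8 and 14.9 after, and in siPFDN5 at 34.5 and 34.9 before and 20.2 and 19.2 after. Libraries before and after serum were apart in siControl and in siPFDN5 and overlapped in siPFDN2. The log2 fold changes were -0.51, -0.27 and -0.82 (SE 0.19 each), and -0.55 in siPFDN2 without the library that stood apart. CCNG2 spans 276238 bases in the annotation used and overlaps 4 other genes, so part of its gene-body count may belong to those.

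BCL6 (chr3:187721377-187745727, minus strand), a zinc-finger repressor of transcription and a known FOXO target, was higher after serum. Its CPM was 16.6 and 14 before and 23.5 and 24.0 after in siControl, 12.7 and 13 before and 20.8 and 19 after in siPFDN2, and 16.1 and 16.8 before and 18.2 and 19.8 after in siPFDN5. The groups were apart in each siRNA, least so in siPFDN5. The log2 fold changes were 0.63, 0.63 and 0.21, with an SE of 0.14 each. BCL6 overlaps 2 other annotated genes and DDIT4L 2, while INSR, IRS1, KLHL24, TXNIP and ARRDC4 overlap none.

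ARRDC4 (chr15:97960698-97973838, plus strand), the arrestin-domain relative of TXNIP, responded with opposite signs between siRNAs. In siControl it was at 6.62 and 8.12 CPM before and 10.3 and 10.9 after serum. In siPFDN2 it was at 5.51 and 3.27 before and 7.69 and 7.86 after. In siPFDN5 it was at 8.03 and 8.22 before and 5.24 and 5.84 after. Both libraries after serum were above both before it in siControl and siPFDN2 and below both in siPFDN5. The log2 fold change was 0.52 (SE 0.22) in siControl, 0.83 (SE 0.22) in siPFDN2, or 0.50 without the library that stood apart, and -0.55 (SE 0.22) in siPFDN5.

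DDIT4L (chr4:100185870-100190782, minus strand), also called REDD2, restrains mTORC1 and is the gene whose level was most reduced after serum in siControl. Its CPM was 18.5 and 18.2 before and 7.23 and 8.88 after in siControl. In siPFDN2 it was 11.9 and 7.37 before and 6.33 and 6.76 after, and in siPFDN5 10.8 and 11.2 before and 8.10 and 7.28 after. The libraries after serum lay within a narrow band whichever siRNA was used, and the starved siControl libraries stood above all others. The log2 fold changes were -1.19 (SE 0.21), -0.55 (SE 0.21) and -0.51 (SE 0.21), and -0.86 in siPFDN2 without the library that stood apart.

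**Figure D1:**
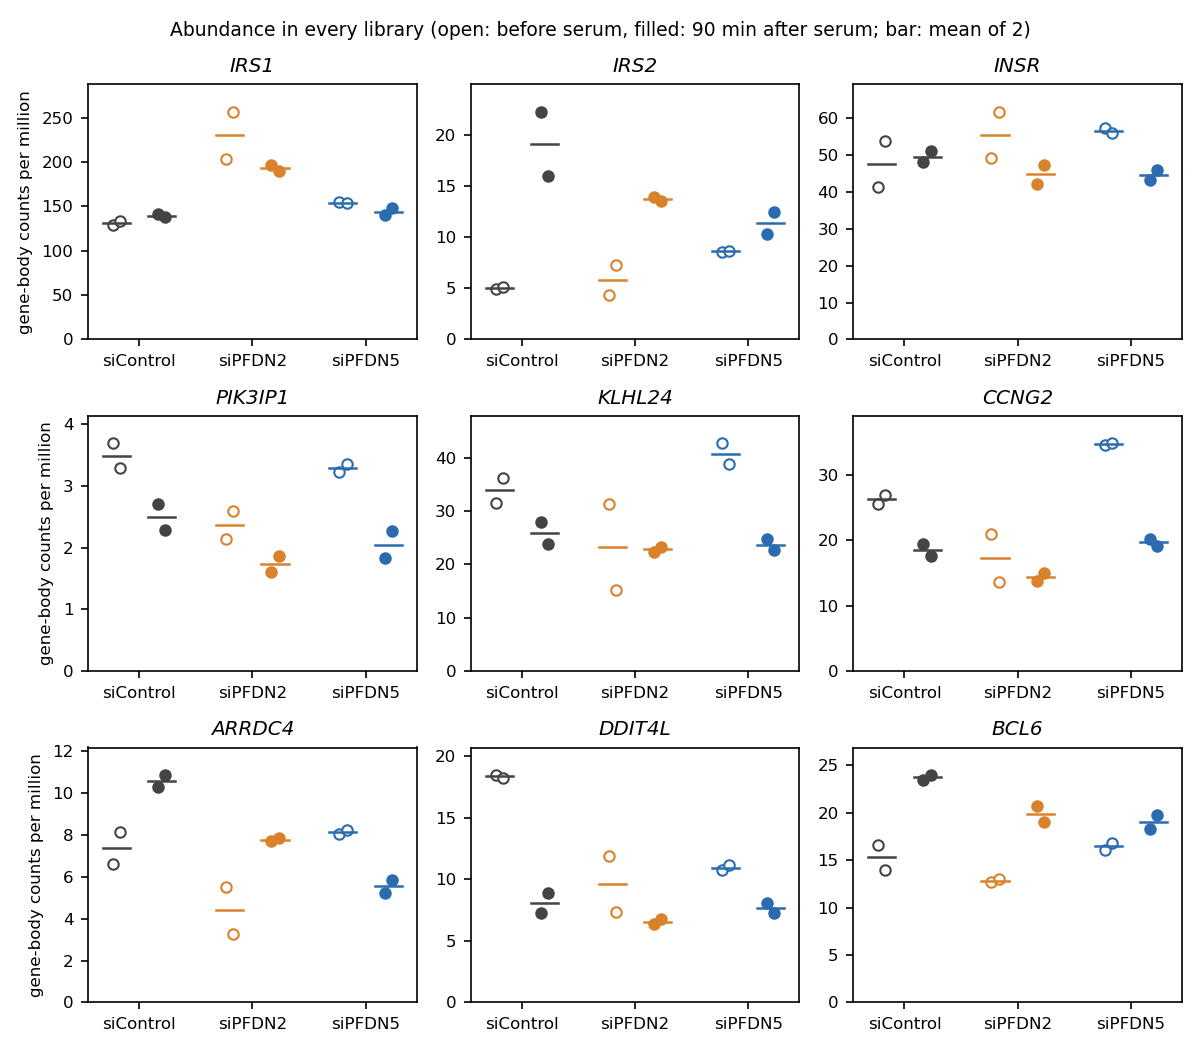
Gene-body CPM of the 9 detected genes in each library (vertical axis from 0, 1 panel per gene), by siRNA, open before serum and filled 90 min after it, with bars at the mean of 2 libraries. DDIT4L, CCNG2, KLHL24 and PIK3IP1 have their siControl libraries lower after serum, IRS2, ARRDC4 and BCL6 have them higher, and ARRDC4 reverses in siPFDN5.

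The name of the group thus held for 4 of the 9 detected genes in siControl: PIK3IP1, KLHL24, CCNG2 and DDIT4L had negative serum log2 fold changes, and the other 5, IRS2, BCL6, ARRDC4, IRS1 and INSR, had positive ones. The median over the 9 was 0.06 in siControl, -0.25 in siPFDN2 and -0.51 in siPFDN5, beside medians of 0.01, -0.02 and -0.03 over all genes tested. The siPFDN2 median was -0.13 without the library that stood apart. IRS2 and ARRDC4 had the largest gaps between siPFDN5 and siControl. The difference of the serum log2 fold change, siPFDN5 minus siControl, was -1.52 (SE 0.33) for IRS2 and -1.07 (SE 0.31) for ARRDC4, and for DDIT4L it was 0.68 (SE 0.30). PFDN5 itself was near the siControl level in the libraries labelled siPFDN5 after serum, and its part in these gaps was not tested.

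**Figure D2:**
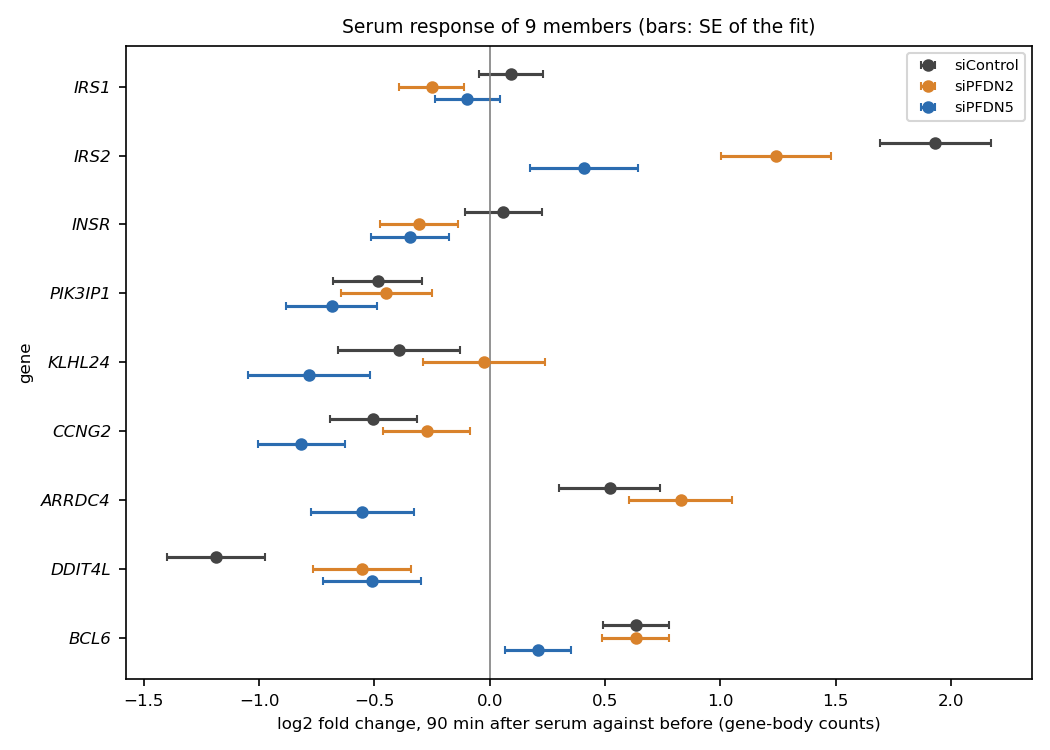
Serum log2 fold change of gene-body counts (horizontal axis, 90 min after serum against before) for the 9 detected genes (vertical axis), by siRNA, with bars of 1 SE of the fit. IRS2 goes from 1.93 in siControl to 0.41 in siPFDN5, and ARRDC4 from 0.52 to -0.55.

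The siRNAs were compared at each time, a contrast that did not serve to choose the genes. With all libraries, the quasi-likelihood test of edgeR, adjusted by Benjamini-Hochberg over all genes, called none of the 9 genes in any of 6 contrasts. Few genes of any kind were called: 0% of the 27915 tested for siPFDN2 against siControl before serum and 0% after it, 0.00716% for siPFDN5 against siControl before serum and 0.00358% after it, and 0.0788% and 0.0179% for siPFDN5 against siPFDN2 before and after. At an unadjusted p under 0.05 by edgeR, 3156 and 1747 of the 27915 genes passed for siPFDN2 against siControl before and after serum. For siPFDN5 against siControl 3432 and 6032 passed, and for siPFDN5 against siPFDN2 8092 and 2212. The counts among the 9 chosen genes were 5 and 2, 2 and 3, and 7 and 2 in the same order. Without the library that stood apart, edgeR called 1 and 1, 3 and 3, and 3 and 3 of them in the same order, beside 0.0241% and 0.568%, 6.96% and 23.9%, and 3.16% and 4.22% of 29034 genes. In that edgeR fit the contrasts with starved siPFDN2 rest on 1 library of that group, so those counts hold no measure of its spread. DESeq2 with all libraries called 2 and 0, 0 and 2, and 4 and 0 of the 9 genes. Beside these stood 0.0967% and 0.00716%, 1.17% and 6.96%, and 13.9% and 0.416% of all genes.

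For siPFDN2 against siControl, IRS1 was the gene with a positive difference at both times. Before serum the mean CPM was 229.9 against 131 and the log2 fold change 0.81 (SE 0.14, adjusted p = 0.442 by edgeR). Without the library that stood apart it was 0.63, an effect size only, since 1 starved siPFDN2 library was left. After serum, where that library takes no direct part, the log2 fold change was 0.47 with all libraries (SE 0.14, adjusted p = 0.772 by edgeR). It was also 0.47 without that library. All siPFDN2 libraries were above all siControl libraries.

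DDIT4L, ARRDC4, CCNG2 and PIK3IP1 were lower in starved siPFDN2 than in starved siControl cells, with log2 fold changes of -0.93 (SE 0.21), -0.75 (SE 0.22), -0.60 (SE 0.19) and -0.56 (SE 0.19), and KLHL24 was at -0.54 (SE 0.26). Leaving out the library that stood apart gave -0.63 for DDIT4L, -0.42 for ARRDC4, -0.32 for CCNG2, -0.70 for PIK3IP1 and -0.11 for KLHL24. None of them passed the edgeR test with or without it (adjusted p = 0.442 for the first 4 with all libraries). DESeq2 called DDIT4L beside IRS1 in this contrast. The median over the 9 genes was -0.54 before serum and -0.30 after it, beside -0.01 and -0.05 over all genes. Before serum it was -0.27 without the library that stood apart and -0.29 with each library's GC trend removed.

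Between siPFDN5 and siControl, IRS2 differed in opposite directions at the 2 times. Starved siPFDN5 libraries, at a mean of 8.62 CPM, were above the siControl libraries at 5.02 (log2 fold change 0.78, SE 0.24, adjusted p = 0.254 by edgeR). After serum the libraries labelled siPFDN5, at 11.4 CPM, were below siControl at 19.2 (log2 fold change -0.74, SE 0.23, adjusted p = 0.114 by edgeR). Without the library that stood apart both passed, with adjusted p = 0.0120 and 0.00282 by edgeR, at 0.77 (SE 0.14) and -0.74 (SE 0.14). In neither comparison did the libraries overlap.

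DDIT4L was lower in starved siPFDN5 cells, at 10.8 and 11.2 against 18.5 and 18.2 CPM (log2 fold change -0.75, SE 0.21, adjusted p = 0.234 by edgeR), and passed without the library that stood apart (adjusted p = 0.00431). CCNG2 passed on the higher side in that fit, at a log2 fold change of 0.40 (SE 0.09, adjusted p = 0.0189 by edgeR), against 0.40 (SE 0.19, adjusted p = 0.418) with all libraries. After serum ARRDC4 was lower in the libraries labelled siPFDN5, at 5.24 and 5.84 against 10.3 and 10.9 CPM, with a log2 fold change of -0.93 (SE 0.22, adjusted p = 0.0754 by edgeR) and an adjusted p of 0.000397 without the library that stood apart. BCL6 was at -0.32 (SE 0.14, adjusted p = 0.222 by edgeR), and at -0.32 (SE 0.10, adjusted p = 0.0330) without it. Over the 9 genes the median was 0.23 before serum and -0.15 after it, beside 0.01 and -0.04 over all genes.

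Set directly against each other in starved cells, siPFDN5 was above siPFDN2 for CCNG2 by 1.00 on the log2 scale (SE 0.19, adjusted p = 0.0527 by edgeR), for ARRDC4 by 0.89 (SE 0.22, adjusted p = 0.0625) and for KLHL24 by 0.81 (SE 0.27, adjusted p = 0.0877). IRS1 went the other way, with -0.58 (SE 0.14, adjusted p = 0.0601 by edgeR). Leaving out the library that stood apart gave 0.72 for CCNG2, -0.41 for IRS1, 0.97 for IRS2, 0.55 for ARRDC4 and 0.37 for KLHL24. These are effect sizes only, since 1 starved siPFDN2 library was left. After serum CCNG2 kept a difference of 0.46 (SE 0.09, adjusted p = 0.0120), IRS1 of -0.42 (SE 0.07, adjusted p = 0.00787) and ARRDC4 of -0.49 (SE 0.12, adjusted p = 0.0362) in that fit by edgeR. The medians over the 9 genes were 0.47 before and -0.01 after serum with all libraries, beside 0.04 and 0.01 over all genes, and 0.37 before serum without the library that stood apart.

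**Figure D3:**
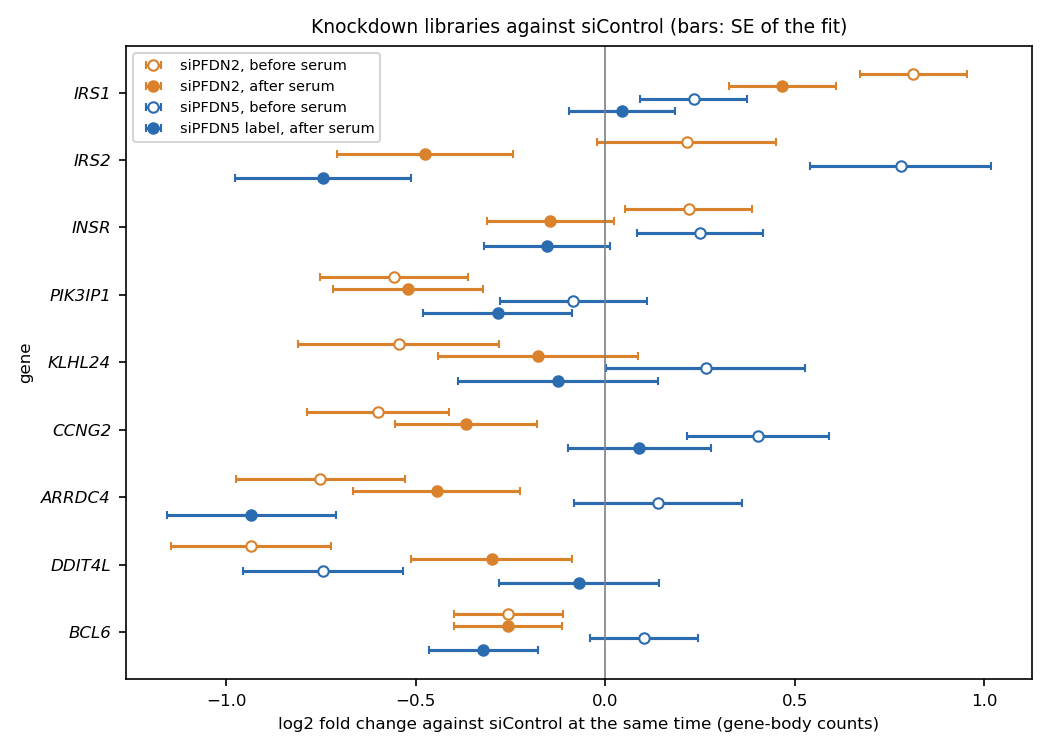
Log2 fold change of gene-body counts against siControl at the same time (horizontal axis) for the 9 detected genes (vertical axis), siPFDN2 in orange and siPFDN5 in blue, open before serum and filled after it, with bars of 1 SE of the fit to all 12 libraries. IRS1 is above 0 in siPFDN2 at both times (0.81 and 0.47), and IRS2 crosses from 0.78 to -0.74 in siPFDN5.

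Intronic fragments come mostly from unspliced RNA and so follow recent transcription more closely than exonic fragments, which are mostly from mature messenger RNA. Intronic counts were taken as gene-body minus exon counts, both on the gene-body scale, and 8 genes had at least 20 of them per library on average. DDIT4L and TXNIP did not. In siControl the median exonic log2 fold change of the 8 was 0.03 and the median intronic one 0.28. The median of the intronic minus the exonic change was 0.50, above 0 in 6 genes and below 0 in 2, beside 0.17 over 3527 genes. Those compared genes overlap no other gene and had means of at least 20 intronic and 20 exonic counts. Of the 8, IRS2, PIK3IP1, CCNG2 and BCL6 do overlap others. Among these 8 genes a lower intronic than exonic change was limited to INSR and BCL6 in the control cells, at -0.17 and -0.37. DDIT4L, left out for its low counts, had 8 and 13 intronic counts before serum and 1 and 0 after it in siControl.

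The gap of IRS2 in siControl was 1.00, and its size rested on 1 library. Its introns held 0.549 and 0.674 CPM before serum and 5.96 and 2.38 after it, a log2 fold change of 2.77 against 1.77 in exons. For each 100 exonic counts of IRS2 there were 36.5 intronic ones in the first library after serum and 17.5 in the second, against 12.6 and 15.1 before serum. CCNG2 introns were at 3.14 and 3.67 CPM before and 5.71 and 2.49 after, which overlap, and gave 0.27 against -0.67 in exons. PIK3IP1 gave 0.02 in introns and -0.66 in exons, KLHL24 -0.39 in both, and INSR -0.10 and 0.07. For KLHL24, CCNG2 and PIK3IP1, the 3 lower in exons after serum, intronic values before and after serum overlapped. No division among these 3 genes is therefore shown. The higher CCNG2 value rested on the first library after serum, since the second, at 2.49 CPM, was below both starved ones. Its introns also overlap other genes.

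In siPFDN2 the median intronic minus exonic change was -0.11, with 4 genes above 0 and 4 below, beside -0.29 over 3526 genes. IRS2 introns were at 0.296 and 0.284 CPM before serum and 2.47 and 2.77 after it, a log2 change of 3.18 against 1.01 in exons. IRS1 introns were at 47.0 and 26.4 before and 58.1 and 52.6 after, 0.59 against -0.49 in exons. INSR had a gap of -0.82 and BCL6 of -0.78, and INSR introns were at 3.003 and 5.18 CPM before and 1.86 and 2.01 after. Without the library that stood apart the gaps were 1.69 for IRS2, 0.42 for IRS1, -0.53 for INSR and -0.65 for BCL6, and the median was 0.18, of the other sign.

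In siPFDN5 introns were lower after serum in 7 of the 8 genes. The median intronic change was -1.23 against -0.39 in exons, and the median gap -0.93, with 6 genes below 0 and 2 above. INSR introns went from 5.10 and 4.68 CPM to 1.53 and 1.01, a log2 change of -1.95 against -0.26 in exons. KLHL24 introns went from 1.72 and 1.48 to 0.519 and 0.515 (log2 change -1.63 against -0.76), and those of CCNG2 from 6.63 and 5.35 to 2.13 and 1.60 (-1.68 against -0.69). IRS2 and BCL6 moved apart in sign: IRS2 introns went from 1.85 and 1.42 to 1.08 and 1.13 CPM while exons were at 0.56, and BCL6 had -1.15 in introns and 0.34 in exons. ARRDC4 introns went from 0.398 and 0.370 to 0.0983 and 0.211 CPM.

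The lower intronic than exonic change in siPFDN5 was common to most genes measured. Over 3527 genes the median gap was -1.01, and 94.3% lay below 0, against 36.7% in siControl and 71.4% in siPFDN2. The share of a library's gene-body counts outside exons was 22.8% and 25.9% in siPFDN5 before serum and 17.2% and 14.8% after it, and 15% to 20.9% in the other 8 libraries. When intronic and exonic counts were each scaled by their own TMM factors, the median gap in siPFDN5 was -0.11 for the 8 genes. It was -0.20 for the 3527 genes, of which 63.1% lay below 0, against 50.8% in siControl and 56.9% in siPFDN2. On the gene-body scale the siControl share was 67.3% without the first siControl library after serum. Among the 3527 genes the gap of INSR stood at percentile 14.4, BCL6 at 23.1, IRS2 at 42.4 and CCNG2 at 50.9. KLHL24 was at 59.3, ARRDC4 at 64.8, IRS1 at 96.4 and PIK3IP1 at 97.8. BCL6, IRS2, CCNG2 and PIK3IP1 overlap other genes, unlike the genes they are ranked among. In siControl and siPFDN2 INSR stood at percentiles 25.5 and 15.4 and BCL6 at 15.7 and 17.5.

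**Figure D4:**
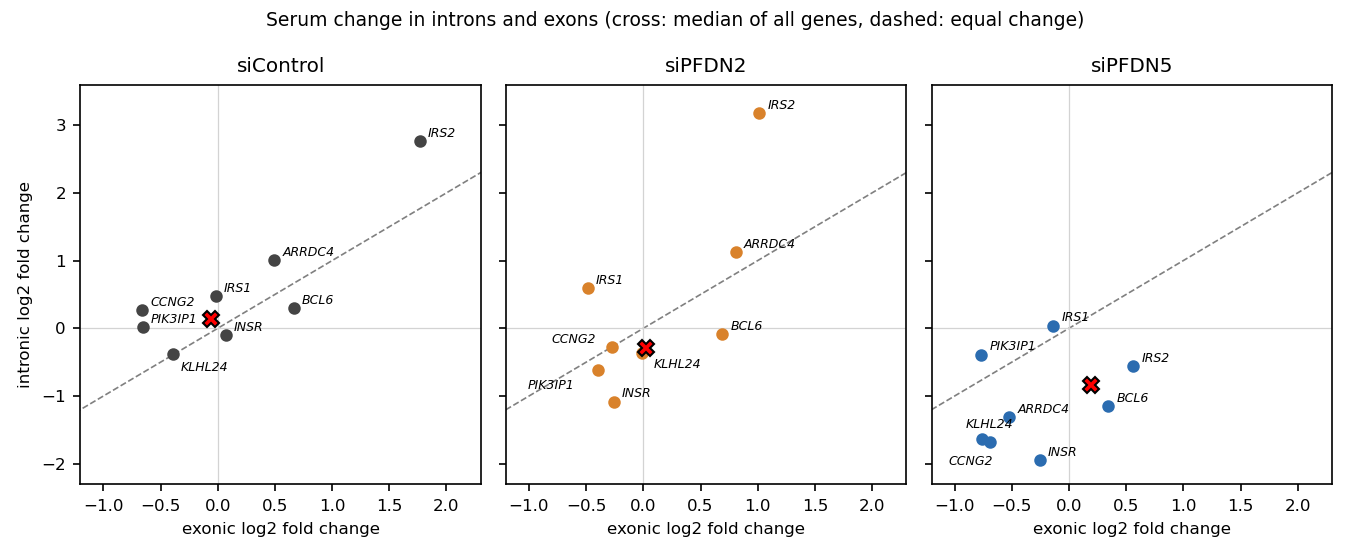
Serum log2 fold change in introns (vertical axis) against that in exons (horizontal axis), 1 panel per siRNA, for 8 genes. A cross marks the median of the compared genes, which overlap no other gene, and a dashed line marks equal change. In siPFDN5 the genes and the cross (0.19 in exons, -0.84 in introns) lie below the line except IRS1 and PIK3IP1, and in siControl most genes lie above it.

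The transcript estimates added the isoforms of INSR. One of its main transcripts lacks exon 11 (36 bases, chr19:7150497-7150532) and the other contains it. This exon distinguishes the receptor form B from form A, of which A is the form typical of fetal and tumour cells. The transcript without it made up 80.9% and 81.6% of estimated INSR counts before serum and 83.9% and 83.2% after it in siControl. It was at 86.3% and 85.6% before and 89.0% and 85.3% after in siPFDN5, and at 85.2% and 63.4% before and 90.4% and 87.9% after in siPFDN2. The form without exon 11 thus dominated in every library, and the lowest share was in the library that stood apart, where the transcript with exon 11 reached 34.6% against 8.1% to 16.4% elsewhere. BCL6 showed the same library apart: its main transcript held 52.7% of estimated BCL6 counts there and 82.0% to 90.1% in the other 11.

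Other genes of the pathway were taken from lists of known function, drawn up with earlier results of these data known. Calls and p-values for these lists are therefore descriptive. Of 20 genes of insulin and PI3K signalling 19 were tested. In siControl 1 rose after serum and 1 fell by edgeR's quasi-likelihood test, with a median of -0.06, where 2.47% of all genes rose and 0.394% fell. The kinase SGK1 rose by 1.89 on the log2 scale (SE 0.20, adjusted p = 0.000283) and TSC1, an inhibitor of mTORC1, fell by 0.56 (SE 0.13, adjusted p = 0.0472). In siPFDN2 SGK1 alone passed, at 2.51 (SE 0.20), with 2.06% of all genes up and 1.2% down. With each library's GC trend removed 2 genes of the list, TSC1 among them, also fell, beside 764 of all 27915 genes. In siPFDN5 SGK1 rose by 2.24 (SE 0.20), and GRB10, an adaptor that restrains the insulin receptor, and PIK3R1, the regulatory subunit of PI3K, fell by 0.50 (SE 0.13) and 0.70 (SE 0.18), where 5.72% of all genes rose and 6.48% fell. Without the library that stood apart more genes of the list passed in siPFDN5, as did more of all genes tested.

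None of the 4 FOXO genes passed with any siRNA by edgeR with all libraries. FOXO1 rose in siControl and FOXO6, also named after its values were seen, fell in siPFDN5 once the GC trend was removed. With all libraries FOXO1, a main insulin-responsive member that is named after its values were seen, had serum log2 fold changes of 0.79 (SE 0.22, adjusted p = 0.106 by edgeR) in siControl, 0.39 (SE 0.22) in siPFDN2 and -0.43 (SE 0.22) in siPFDN5. Of 31 other FOXO targets 26 were tested, and in siControl 4 rose and none fell: GADD45B, GADD45A and CITED2, which respond to stress and mitogens, and BCL2L11, the death factor BIM. GADD45B rose by 2.58 (SE 0.16), GADD45A by 1.88 (SE 0.16), CITED2 by 1.68 (SE 0.13) and BCL2L11 by 0.74 (SE 0.14). GADD45A, GADD45B and CITED2 also rose in siPFDN2 and siPFDN5. In siPFDN5 the cell cycle inhibitor CDKN1A rose by 0.57 (SE 0.15), while CDKN1B and the ubiquitin ligase subunit FBXO32 fell by 0.92 (SE 0.15) and 0.88 (SE 0.20). CDKN1B was at -0.48 (SE 0.15, adjusted p = 0.137 by edgeR) in siControl. With each library's GC trend removed 5 genes of this list rose and 4 fell in siControl, beside 1214 and 555 of all 27915 genes. Genes of the list also fell in siControl without the library that stood apart. The medians of this list were -0.16, 0.19 and -0.01 in siControl, siPFDN2 and siPFDN5. The siPFDN2 median turned sign to -0.08 without the library that stood apart and to -0.06 with the GC trend removed.

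Among 8 genes of MondoA and the arrestin-domain family 1 passed, ARRDC3 in siPFDN2, which rose by 1.22 (SE 0.24, adjusted p = 0.0224 by edgeR). In siControl ARRDC3 was at 0.99 (SE 0.24, adjusted p = 0.0574 by edgeR), the same sign as ARRDC4. DDIT4, the paralogue of DDIT4L that also restrains mTORC1, fell in siPFDN2 by 0.73 (SE 0.17) and in siPFDN5 by 0.65 (SE 0.17), and was at -0.53 (SE 0.17, adjusted p = 0.165 by edgeR) in siControl. It was 1 of 4 close relatives of the 10 genes to pass. Between siRNAs edgeR called no gene of these lists with all libraries, but it called some in other fits. With the GC trend removed 8 of the 26 other FOXO targets were higher in siPFDN5 than in siPFDN2 before serum, beside 817 of all 27915 genes. Among the 8 were SESN3, CDKN1A, BBC3 and GADD45A, named after their values were seen.

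The mean of the 9 genes' standardised log2 CPM was highest in the 2 starved siPFDN5 libraries, at 0.58 in both, and lowest in the first siPFDN5 library after serum and the second starved siPFDN2 library, at -0.47 in both. The 5 other genes whose log2 CPM followed this mean most closely over the 12 libraries, among 12106 genes, were C4orf51 (Pearson's r 0.96), HOOK3 (0.948), DSTYK (0.937), NFAT5 (0.928) and AC012321.1 (0.924), which overlaps NFAT5. The 9 genes did not share 1 profile. Pearson's r of a gene with the mean of the others was -0.69 for IRS1, -0.25 for IRS2 and -0.17 for BCL6. It was positive for the rest, at most 0.63 for KLHL24. These values describe 12 libraries that share depth and GC content effects.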

How the data were processed

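RNA from HCT116 cells was sequenced in 12 libraries, grouped and numbered by their titles. The authors deposited whole-number fragment counts per gene over gene bodies and over exons, made with featureCounts 1.5.2 on Ensembl release 87, per the file headers, without a strand option and with fragments over several genes counted for each. Each library also has a deposited table of estimated counts per transcript, although its name says TPM. The submitters' processing notes name kallisto 0.43, the aligner HISAT2 and the build GRCh38.p7. A further 6 columns of the tables match no sample and were not used. Gene names came from GENCODE release 29.

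Gene-body counts were fitted with edgeR 4.0.16 in R 4.3.3 (filterByExpr, TMM, 1 model of 6 group means, robust glmQLFit, two-sided quasi-likelihood tests, Benjamini-Hochberg adjustment over all genes tested, called under 0.05). Abundance is CPM on the TMM-scaled total. SE values are the log2 fold change over the square root of F. Intronic counts are gene-body minus exon counts. Alternatives were DESeq2 1.42.0, library size only, no filter, exon counts, removal of each library's GC trend (lowess, span 0.3), the replicate number as a block, and each library left out. The replicate numbers do not pair the libraries: correlations of same-number deviations over 12113 genes lay between -0.322 and 0.592. The genes, the pathway lists and the motifs were chosen with earlier results of these data known. Named genes are the 10 chosen ones, up to 3 called genes per list and direction with the largest change, PFDN2 and PFDN5, and the 5 genes most like the mean profile, with FOXO1, CDKN1B, ARRDC3 and DDIT4 given for other siRNAs too. Read counting error was not measured apart from the spread between libraries, and it weighs most on the low intronic counts.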

Additional observations from a re-analysis of the deposited data

Results flagged for a closer look

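In 3 genes both libraries after serum were above both before it with 1 siRNA and below both with another. ARRDC4 did so in gene-body, exon and intron counts, IRS2 in introns alone and IRS1 in gene-body counts alone. The share of all genes that did so was not counted, and in siPFDN5 94.3% of compared genes had a lower intronic than exonic change. None of these differences was tested, since the serum contrast served to choose the genes. For ARRDC4, the serum log2 change in siPFDN5 minus that in siControl was -1.07 in gene-body, -1.02 in exon and -2.32 in intron counts. Against siPFDN2 the ARRDC4 differences were -1.38, -1.33 and -2.44. They include the library that stood apart, without which the ARRDC4 gene-body change in siPFDN2 was 0.50 rather than 0.83. The intronic differences rest on few counts, 25 and 25 before and 7 and 18 after serum in siPFDN5. For IRS2 introns the difference of siPFDN5 was -3.33 from siControl and -3.74 from siPFDN2, while IRS2 exons were higher after serum with all 3 siRNAs. For IRS1 gene-body counts the difference from siControl was -0.34 in siPFDN2 and -0.19 in siPFDN5, with small changes on both sides. Without the library that stood apart the IRS1 difference in siPFDN2 was -0.16. PFDN5 was not lowered in the libraries labelled siPFDN5 after serum, and the starved siPFDN5 libraries had the highest intronic shares (22.8% and 25.9%). The part of either in these differences was not tested.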

How the results depend on the processing

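The counts of genes called between siRNAs were 0 of 9 with all libraries and edgeR, and depended on the setting. Calls over all genes stand in brackets, of 48486 genes with no filter and of 27915 for the rest named here. For siPFDN2 against siControl before serum DESeq2 gave 2 (27), no filter 2 (1083) and GC trend removed 1 (6). For siPFDN5 against siControl before serum no filter gave 2 (1032), GC removal 2 (182) and the replicate block with GC removal 1 (77). After serum DESeq2 (1944), no filter (2630), GC removal (3762) and the replicate block with GC removal (2640) each gave 2. For siPFDN5 against siPFDN2 before serum DESeq2 gave 4 (3870), no filter 4 (5552), GC removal 6 (1776) and the replicate block with GC removal 4 (1184). After serum GC removal gave 1 (154). The replicate block alone gave 0 in all 6 contrasts. Leaving out 1 library gave 0 to 7 and 0 to 1 for siPFDN2 against siControl before and after serum, 0 to 3 and 0 to 3 for siPFDN5 against siControl, and 0 to 6 and 0 to 3 for siPFDN5 against siPFDN2. All counts above 0 came from leaving out either starved siPFDN2 library, except 1 and 2 for siPFDN5 against siPFDN2 before serum without siControl after serum replicate 1 and replicate 2. Without the first starved siPFDN2 library, which leaves the library that stood apart alone in its group and assumed to vary like the others, 7 were called against siControl. Wherever leaving out 1 library led to calls among the 9, more of all genes were called too than with all libraries. Calls over all genes were by far the most in the contrasts of starved siPFDN2 without its first library. The leave-one-out counts therefore do not set the 9 genes apart from other genes. Of 21 single differences with an unadjusted p under 0.05 by edgeR, all 399 refits kept the sign. The 21 were picked by that p-value and refitted on mostly the same libraries, so the kept signs are no added support.

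With library size only the serum medians were -0.465 in siPFDN2 and -0.664 in siPFDN5. Leaving out 1 library gave -0.127 to 0.110 in siControl (lowest without starved replicate 1, where the sign turns), -0.248 to 0.082 in siPFDN2 (highest without starved replicate 1), -0.532 to -0.426 in siPFDN5 and -0.255 to -0.126 for the average of the 3 siRNAs. The median intronic minus exonic change in siControl was 0.251 over the 4 genes that overlap no other. Scaled separately it was 0.092 in siPFDN2 and -0.114 in siPFDN5, and with at least 100 intronic counts -1.125 in siPFDN5. Leaving out 1 library gave 0.239 to 0.593 (lowest without siControl after serum replicate 1), -0.390 to 0.180 (without starved siPFDN2 replicate 1 and replicate 2) and -1.045 to -0.811. The causes were not tested. With 2 libraries per group, small differences may be missed.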
